A study of Mus musculus with 42 samples.

Results

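The levels of 9 genes for chromatin remodeling and chromosome architecture were followed across early cleavage of mouse embryos whose NAD+ supply or deacetylases had been altered. The genes were chosen by name: Smarca4, Arid1a and Smarcc2 of the BAF complex, Smarca5 of the ISWI family, Chd7 of the CHD family, Ino80, Smarcad1, and the architectural genes Ctcf and Stag1. All 9 were found among 15737 genes analysed. RNA-seq was made from embryos of ICR mice, 3 embryos to a library and 2 libraries to a group, and the table used here gives 1 FPKM column for each of 9 groups (fragments per kilobase of exon, scaled to the depth of the library).

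The groups were early 2-cell embryos at 34 h after hCG, late 2-cell embryos at 48 h and 4-cell embryos at 58 h. Late 2-cell embryos were controls, given FK866 at 0.01 µM, given 0.01 µM FK866 with 10 µM NMN, given TSA at 10 nM, or subjected to Sirt1 knockdown. The 4-cell embryos were controls, given 0.01 µM FK866, or given 0.01 µM FK866 with 10 µM NMN. FK866 inhibits NAMPT, the salvage enzyme that makes the NAD+ precursor NMN, and added NMN enters the pathway after that step. TSA (trichostatin A) inhibits the zinc-dependent histone deacetylases, and Sirt1 encodes an NAD+-dependent deacetylase. The inhibitors were dissolved in DMSO, and the knockdown was made by injecting zygotes with siRNA, Trim21 mRNA and an antibody to SIRT1, for which the study's negative control was scrambled siRNA with Trim21 mRNA. Only 1 late 2-cell control column is present, so its libraries served for both the inhibitors and the knockdown, and a knockdown difference cannot be told apart from one of injection.

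Each value multiplied by the exon length of its gene fell on whole reads, so that 7 columns could be separated into 2 libraries and 2 columns held 1 library. The 16 libraries had 3169677 to 10003481 reads, and within a column the larger is called A and the smaller B. For 5 columns the group in the header is not the group that the paper's own tables give those values. The column headed late 2-cell TSA holds the values that the tables give for 4-cell control, that headed late 2-cell Sirt1 those of 4-cell FK866, and that headed 4-cell control those of 4-cell FK866+NMN. The column headed 4-cell FK866 changed as the tables list for late 2-cell TSA and that headed 4-cell FK866+NMN as they list for the Sirt1 knockdown, and these are the 2 columns with 1 library. In these columns 1203 of 1203 genes and 773 of 821 genes, respectively, differed from control in the listed direction. The columns headed late 2-cell TSA and late 2-cell Sirt1 gave 546 of 1203 and 442 of 821. The next best columns were early 2-cell, with 1096 of 1203, and late 2-cell FK866, with 703 of 821. All columns were set against the same control, so a high count is not particular to one column. The libraries of the 3 columns that the tables place at the 4-cell stage correlated with each other at r of 0.86 to 0.93 and with the late 2-cell control libraries at 0.71 to 0.80, across 14923 genes. Comparisons that use these 5 columns are given by the headers and by the tables.

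The stage of the columns was checked on genes transcribed at the 2-cell stage, of which 9 of 12 listed were among the rows. Their summed level was 18.4 to 49.7 FPKM in the 3 columns that the tables place at the 4-cell stage and 420 to 1134 FPKM in the other 6, which include the 2 columns with 1 library. Of 5 oocyte genes, 2 to 5 reached 1 FPKM in each of the 3 columns and 3 to 5 in each of the others. The one spermatid gene on the list that could be looked up, Odf2, was at 1.74 to 2.47 FPKM in the 3 columns and 16.6 to 79.0 FPKM elsewhere. Of 6 cumulus and granulosa genes, Foxl2 and Ptx3 were at 0 in 8 of 9 columns, and Cyp11a1 reached at most 0.267 FPKM. Cyp19a1 was at 0 in 5 columns and reached 8.12 FPKM elsewhere. Tnfaip6 was at 0 in 7 columns and reached 2.67 FPKM, and in late 2-cell control 2 of the 6 reached 1 FPKM. Nr5a2, which embryos also express, was at 5.86 to 59.9 FPKM. Late 2-cell FK866+NMN library A had the fewest genes detected, 5504, and the r of 0.69 between the libraries of that column was the lowest of the 7 columns. Its library B had 6502 genes detected, near the 6478 of library A headed late 2-cell TSA. Sirt1, the knockdown target, was at 86.6 and 66.2 FPKM in the late 2-cell control libraries, 32.4 and 73.1 FPKM in those headed late 2-cell Sirt1, and 11.3 FPKM in the library headed 4-cell FK866+NMN. It was lower still, at 7.61 FPKM, in the library headed 4-cell FK866, which the tables place as TSA, so that the target does not set the placed knockdown library apart. The difference from control was -0.63 ± 0.52 (log2 of FPKM + 1, standard error) by the headers and -2.64 ± 0.62 by the tables, with adjusted p of 0.415 and 0.0842 in limma. For TSA by the tables it was -3.16 ± 0.61 with adjusted p = 0.00696. Whether these marker differences have a part in the values of the 9 genes was not tested.

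Chromatin remodelers are ATPases of the SNF2 family that slide, eject or exchange nucleosomes, and they work as the motors of large complexes. BAF complexes open promoters and enhancers, ISWI complexes space nucleosomes, CHD proteins read or move nucleosomes at active sites, and INO80 and its relatives edit nucleosomes and take part in DNA repair and replication. CTCF binds DNA through zinc fingers and stops the cohesin ring as it extrudes loops, and STAG1 is a subunit of that ring. In the mouse embryo the first wave of transcription begins in the zygote and early 2-cell stage and the main wave in the late 2-cell stage, when maternal transcripts are also cleared. A level of mRNA at these stages therefore holds both stored and new transcripts, and less RNA per embryo cannot be told apart from fewer copies of one transcript, since FPKM are relative to the library.

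RefSeq promoters (GRCm38.p6, 250 bases before to 50 after the start) were found for 8 of the 9 genes, 10 sequences in all. The promoter of Ino80, the gene with the differences that passed the test below, spans chr2:119477638-119477937 on the minus strand, and that of Ctcf spans chr8:105636288-105636587 on the plus strand. They are shown 5′ to 3′, with capitals for CCCTC, the letters that gave CTCF its name, and its reverse complement GAGGG.

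Ino80: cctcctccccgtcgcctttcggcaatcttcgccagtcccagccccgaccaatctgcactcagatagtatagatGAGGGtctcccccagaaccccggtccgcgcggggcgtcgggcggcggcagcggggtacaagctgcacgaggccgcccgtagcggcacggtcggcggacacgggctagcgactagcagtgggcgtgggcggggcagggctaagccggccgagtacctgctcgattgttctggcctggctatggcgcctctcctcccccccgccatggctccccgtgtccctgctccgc

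Ctcf: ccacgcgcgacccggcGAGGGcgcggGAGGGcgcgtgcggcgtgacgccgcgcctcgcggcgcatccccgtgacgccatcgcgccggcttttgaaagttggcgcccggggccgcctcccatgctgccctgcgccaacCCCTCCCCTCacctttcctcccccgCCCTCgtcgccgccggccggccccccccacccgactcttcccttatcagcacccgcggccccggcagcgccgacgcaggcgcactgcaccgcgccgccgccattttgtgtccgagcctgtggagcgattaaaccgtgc

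The Ino80 promoter holds 1 such match and the Ctcf promoter 5, and a pair of those in Ctcf abut. A match on either strand was found in 8 of the 10 promoters and in 66.0% of all 32851 promoters of the same length. The 10 promoters held 19 to 48 CG dinucleotides, with 32 in Ino80 and 47 in Ctcf, against a median of 7 over all promoters. None of the 10 held TATAAA on either strand, which 13.6% of all promoters hold. These are matches of letters and not sites.

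Over the 9 columns the median level was highest for Ctcf, Arid1a and Smarca5, at 38.6, 38.3 and 37.8 FPKM per library. Smarca4 followed at 18.1, Ino80 at 12.2 and Chd7 at 9.11 FPKM, and Smarcad1, Smarcc2 and Stag1 were lowest at 5.89, 4.46 and 2.99 FPKM. These medians lay above those of 68.0% of genes for Stag1 and of 93.4% for Ctcf and Arid1a. The ranges of Ctcf, Arid1a and Smarca5 over the columns overlapped, as did those of every further pair of neighbours in this order. These ranges span stages and treatments, and the order was not tested against the spread of libraries. The column means varied 2.83-fold from lowest to highest for Ctcf, 3.30-fold for Arid1a and 4.03-fold for Smarca4. They varied 4.98-fold for Stag1, 5.60-fold for Chd7, 6.63-fold for Smarca5 and 7.01-fold for Smarcad1. Ino80 varied 26.0-fold because of 1 column, and Smarcc2 was at 0 in another.

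**Figure D1:**
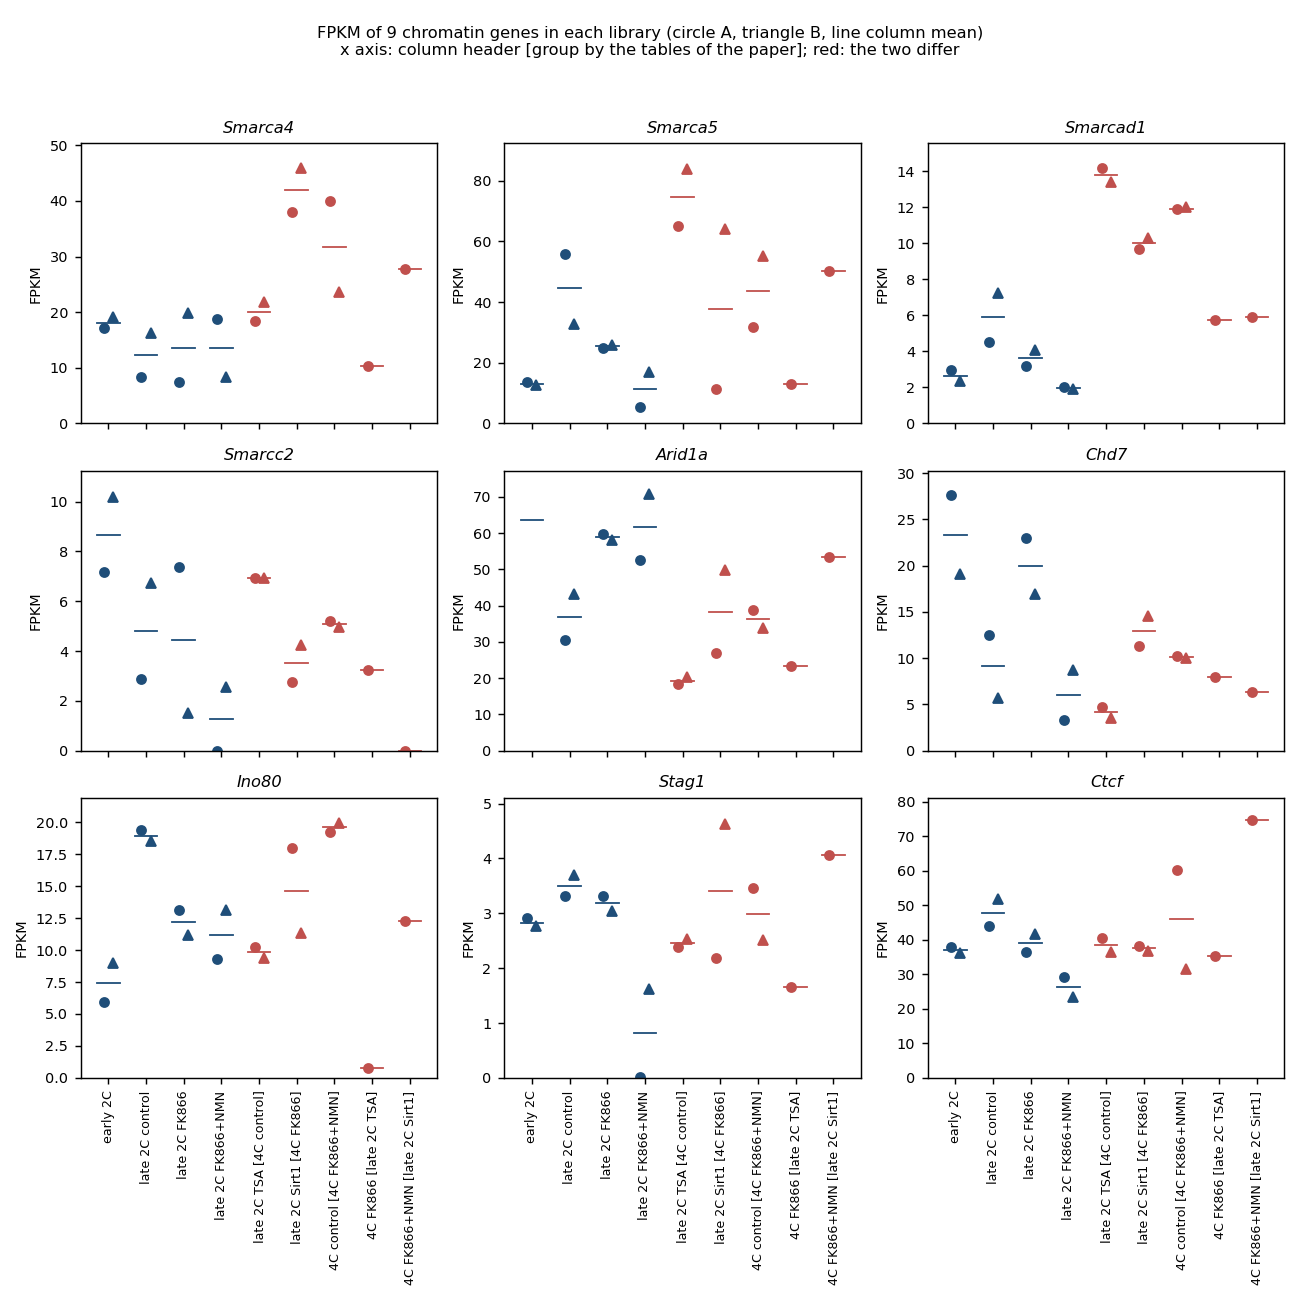
FPKM of each of the 9 genes (y axis, from 0) in every library of the 9 columns (x axis, header with the group by the tables in brackets where the 2 differ, in red), with circles for library A, triangles for library B and a line for the column mean. Ino80 is near 0 in the library headed 4-cell FK866, and Smarcad1 lies between 9.67 and 14.2 FPKM in the 3 columns that the tables place at the 4-cell stage.

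The BAF genes differed from each other in where they were high. Smarca4 (chr9:21616169-21704230, plus strand, GENCODE M21 on GRCm38) encodes BRG1, the ATPase of BAF and a maternal factor in genome activation. It was at 17.2 and 19.1 FPKM in the early 2-cell libraries, 8.38 and 16.2 in late 2-cell control, 7.37 and 19.8 in FK866 and 18.8 and 8.31 in FK866+NMN. It was at 18.4 and 21.8 FPKM in the column headed late 2-cell TSA, 38.0 and 46.0 in that headed late 2-cell Sirt1 and 40.0 and 23.6 in that headed 4-cell control. The 2 columns with 1 library held 10.4 FPKM (headed 4-cell FK866) and 27.7 FPKM (headed 4-cell FK866+NMN). Both libraries headed late 2-cell Sirt1 and both headed 4-cell control lay above all libraries of the early 2-cell and late 2-cell control, FK866 and FK866+NMN columns, while the 2 libraries of a column differed by up to 2.69-fold.

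Arid1a (chr4:133679008-133756769, minus strand), the large DNA-binding subunit that defines canonical BAF, could not be separated in the early 2-cell column, where 2 splits of the reads fit the mean of 63.6 FPKM per library. It was at 30.6 and 43.2 FPKM in late 2-cell control, 59.8 and 58.2 in FK866 and 52.5 and 70.9 in FK866+NMN. All 4 libraries with FK866 thus lay above both control libraries. The libraries headed late 2-cell TSA were lowest, at 18.3 and 20.3 FPKM, and those headed late 2-cell Sirt1 and 4-cell control held 26.8 and 49.8 and then 38.9 and 33.9 FPKM. The single libraries headed 4-cell FK866 and 4-cell FK866+NMN held 23.4 and 53.5 FPKM.

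Smarcc2 (chr10:128459248-128490482, plus strand) encodes BAF170, a scaffold subunit. It was at 7.19 and 10.2 FPKM in early 2-cell, 2.87 and 6.75 in late 2-cell control and 7.39 and 1.53 in FK866 libraries. It had 0 reads in FK866+NMN library A, where 3 reads would be 0.0638 FPKM, and 2.56 FPKM in library B. Within each of these late 2-cell columns one library thus lay well above the other. Both FK866+NMN libraries lay below both control libraries, while those of FK866 alone overlapped the controls. The columns headed late 2-cell TSA and 4-cell control were even, at 6.94 and 6.95 and at 5.20 and 4.97 FPKM, and that headed late 2-cell Sirt1 held 2.75 and 4.26 FPKM. The single library headed 4-cell FK866 held 3.23 FPKM, and that headed 4-cell FK866+NMN had 0 reads, where 3 reads would be 0.0782 FPKM. These limits cover counting error only.

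Smarca5 (chr8:80698507-80739497, minus strand) encodes SNF2H, the ISWI ATPase that spaces nucleosomes. It was at 13.5 and 12.7 FPKM in early 2-cell, 56.0 and 32.9 in late 2-cell control, 25.0 and 25.9 in FK866 and 5.54 and 17.0 in FK866+NMN. The control libraries lay above the early 2-cell, FK866 and FK866+NMN libraries without overlap. It was highest in the column headed late 2-cell TSA, at 65.2 and 84.0 FPKM, and held 11.5 and 64.2 in that headed late 2-cell Sirt1 and 31.7 and 55.3 in that headed 4-cell control. The single libraries held 12.9 FPKM (headed 4-cell FK866) and 50.1 FPKM (headed 4-cell FK866+NMN). Its 2 libraries headed late 2-cell Sirt1 differed by 2.39 on the log2 scale, the widest gap of any of the 9 genes within a column.

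Chd7 (chr4:8690406-8867659, plus strand) encodes a CHD remodeler of enhancers known from CHARGE syndrome. It was at 27.6 and 19.1 FPKM in early 2-cell, 12.5 and 5.70 in late 2-cell control, 23.0 and 16.9 in FK866 and 3.32 and 8.76 in FK866+NMN. The early 2-cell and FK866 libraries lay above both the control and the FK866+NMN libraries. In the columns headed late 2-cell TSA, late 2-cell Sirt1 and 4-cell control it was at 4.77 and 3.56, 11.3 and 14.6, and 10.2 and 9.97 FPKM, and the libraries of these 3 columns did not overlap. It was at 7.96 and 6.37 FPKM in the single libraries headed 4-cell FK866 and 4-cell FK866+NMN.

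Ino80 (chr2:119373042-119477687, minus strand) encodes the ATPase of the INO80 complex, whose promoter is shown above. It was at 5.92 and 8.99 FPKM in early 2-cell, 19.4 and 18.5 in late 2-cell control, 13.1 and 11.2 in FK866 and 9.31 and 13.1 in FK866+NMN. The control libraries lay above those of the other 3 columns. It was at 10.2 and 9.41 FPKM in the column headed late 2-cell TSA, 18.0 and 11.3 in that headed late 2-cell Sirt1 and 19.2 and 19.9 in that headed 4-cell control. The single library headed 4-cell FK866 held 24 reads, or 0.753 FPKM, and that headed 4-cell FK866+NMN 576 reads, or 12.3 FPKM. In the other 14 libraries Ino80 had 227 to 1222 reads, so that the library of 24 reads stood alone.

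Smarcad1 (chr6:65042583-65116061, plus strand) encodes a single-subunit SNF2 remodeler related to INO80 that acts at heterochromatin and DNA breaks. It was at 2.97 and 2.33 FPKM in early 2-cell, 4.55 and 7.23 in late 2-cell control, 3.18 and 4.09 in FK866 and 2.02 and 1.92 in FK866+NMN. It was at 14.2 and 13.4, 9.67 and 10.3, and 11.9 and 12.0 FPKM in the columns headed late 2-cell TSA, late 2-cell Sirt1 and 4-cell control. The single libraries headed 4-cell FK866 and 4-cell FK866+NMN held 5.77 and 5.93 FPKM. The 6 libraries of the 3 columns that the tables place at the 4-cell stage, at 9.67 to 14.2 FPKM, thus lay above the other 10, at 1.92 to 7.23 FPKM. None of the 7 other genes that could be read in all libraries separated in this way, and over all genes 11.6% of 11620 did, in either direction. Libraries A and B of a column differed least for this gene, with a median of 0.09 on the log2 scale.

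Ctcf (chr8:105636568-105682922, plus strand) encodes the zinc-finger protein at loop anchors, and its promoter is shown above. It was at 37.9 and 36.1 FPKM in early 2-cell, 44.0 and 51.8 in late 2-cell control, 36.5 and 41.7 in FK866 and 29.2 and 23.5 in FK866+NMN. The columns headed late 2-cell TSA, late 2-cell Sirt1 and 4-cell control held 40.5 and 36.6, 38.3 and 36.7, and 60.1 and 31.6 FPKM. The single libraries headed 4-cell FK866 and 4-cell FK866+NMN held 35.3 and 74.7 FPKM, the latter the highest of all 16. Ctcf was the steadiest of the 9 across the columns. Stag1 (chr9:100597798-100959375, plus strand), a cohesin subunit that helps hold the ring at CTCF sites, was at 2.91 and 2.76 FPKM in early 2-cell, 3.32 and 3.69 in late 2-cell control and 3.32 and 3.05 in FK866. It had 1 read in FK866+NMN library A and 1.62 FPKM in library B. It was at 2.39 and 2.54, 2.19 and 4.63, and 3.46 and 2.52 FPKM in the columns headed late 2-cell TSA, late 2-cell Sirt1 and 4-cell control, and at 1.65 and 4.06 FPKM in the single libraries headed 4-cell FK866 and 4-cell FK866+NMN. Its highest library level was thus 4.63 FPKM, below the lowest of Ctcf.

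**Figure D2:**
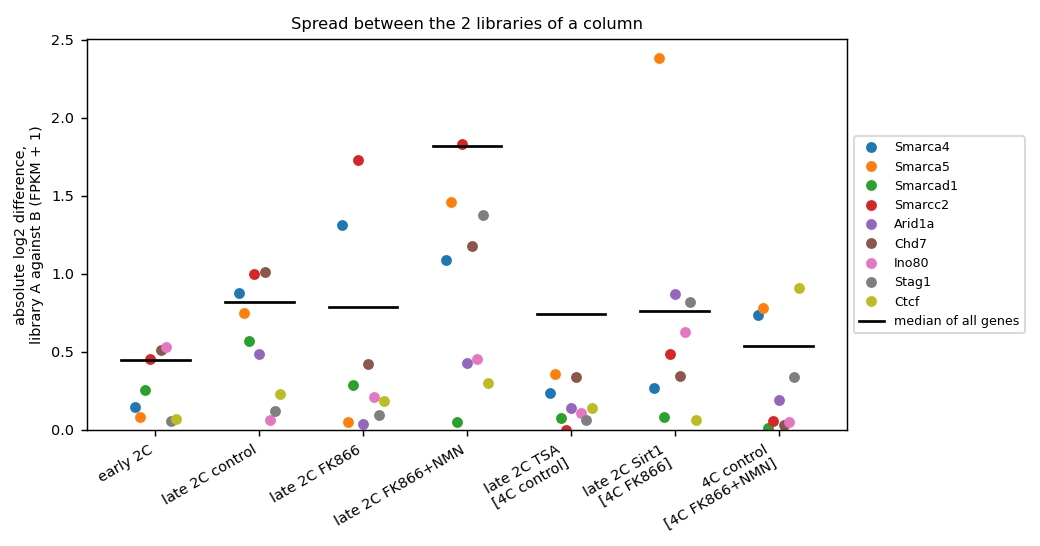
Absolute log2 difference of FPKM + 1 between the 2 libraries of each separable column (y axis) for the 9 genes (colored points) and the median of all genes at 1 FPKM or more (black line), by column (x axis). The all-gene median is 0.45 in early 2-cell and 1.82 in late 2-cell FK866+NMN, and most points lie under the line.

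The spread between libraries of a column set what could be seen. The median difference of the genes between libraries A and B was 0.20 on the log2 scale in the early 2-cell column and 0.57, 0.21 and 0.77 in those of late 2-cell control, FK866 and FK866+NMN. It was 0.14, 0.49 and 0.19 in the columns headed late 2-cell TSA, late 2-cell Sirt1 and 4-cell control. The medians of all genes at 1 FPKM or more were 0.45, 0.82, 0.79, 1.82, 0.74, 0.76 and 0.54 in the same order, higher in each of the 7 columns. The medians over columns were 0.09 for Smarcad1, 0.12 for Stag1, 0.19 for Ctcf and 0.21 for Ino80, and 0.74 and 0.75 for Smarca4 and Smarca5. Genes matched for level were not compared. Where libraries of one column are said to lie above or below those of another, each column has at most 2 libraries. The share of all genes so placed was counted only where a percent is given beside it.

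Differences were tested with limma on log2(FPKM + 1) of the 16 libraries, at an adjusted p (Benjamini-Hochberg over all genes tested) below 0.05, which understates the change of low genes. The study calls the libraries of a group biological replicates, and the p-values measure the spread between such libraries of few embryos each. On simulated data this fit called more unchanged genes than the threshold allows, so that an adjusted p can be too small. The simulated spread between libraries was fixed and not estimated from these data, so the size of this error here is not known. From early to late 2-cell, Ino80 and Smarca5 were higher by 1.26 ± 0.44 and 1.64 ± 0.74 (log2 difference, standard error) and Chd7 was lower, at -1.33 ± 0.55. Their adjusted p were 0.0661, 0.139 and 0.111, so that none of the 8 genes tested passed (Arid1a could not be separated in early 2-cell and was left out), against 21.3% of all 9020 genes. Unadjusted, these 3 were below 0.05, and limma voom on the recovered reads also called 0 of 8, with 3 below 0.05. Smarcad1 differed by 0.89 ± 0.47, Ctcf by 0.36 ± 0.37, Stag1 by 0.23 ± 0.60, Smarca4 by -0.59 ± 0.58 and Smarcc2 by -0.80 ± 0.78. Ino80 passed without early 2-cell library B, at 1.53 ± 0.35 and adjusted p = 0.0261, and with a pseudocount of 5, at 0.95 ± 0.31 and adjusted p = 0.0465.

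**Figure D3:**
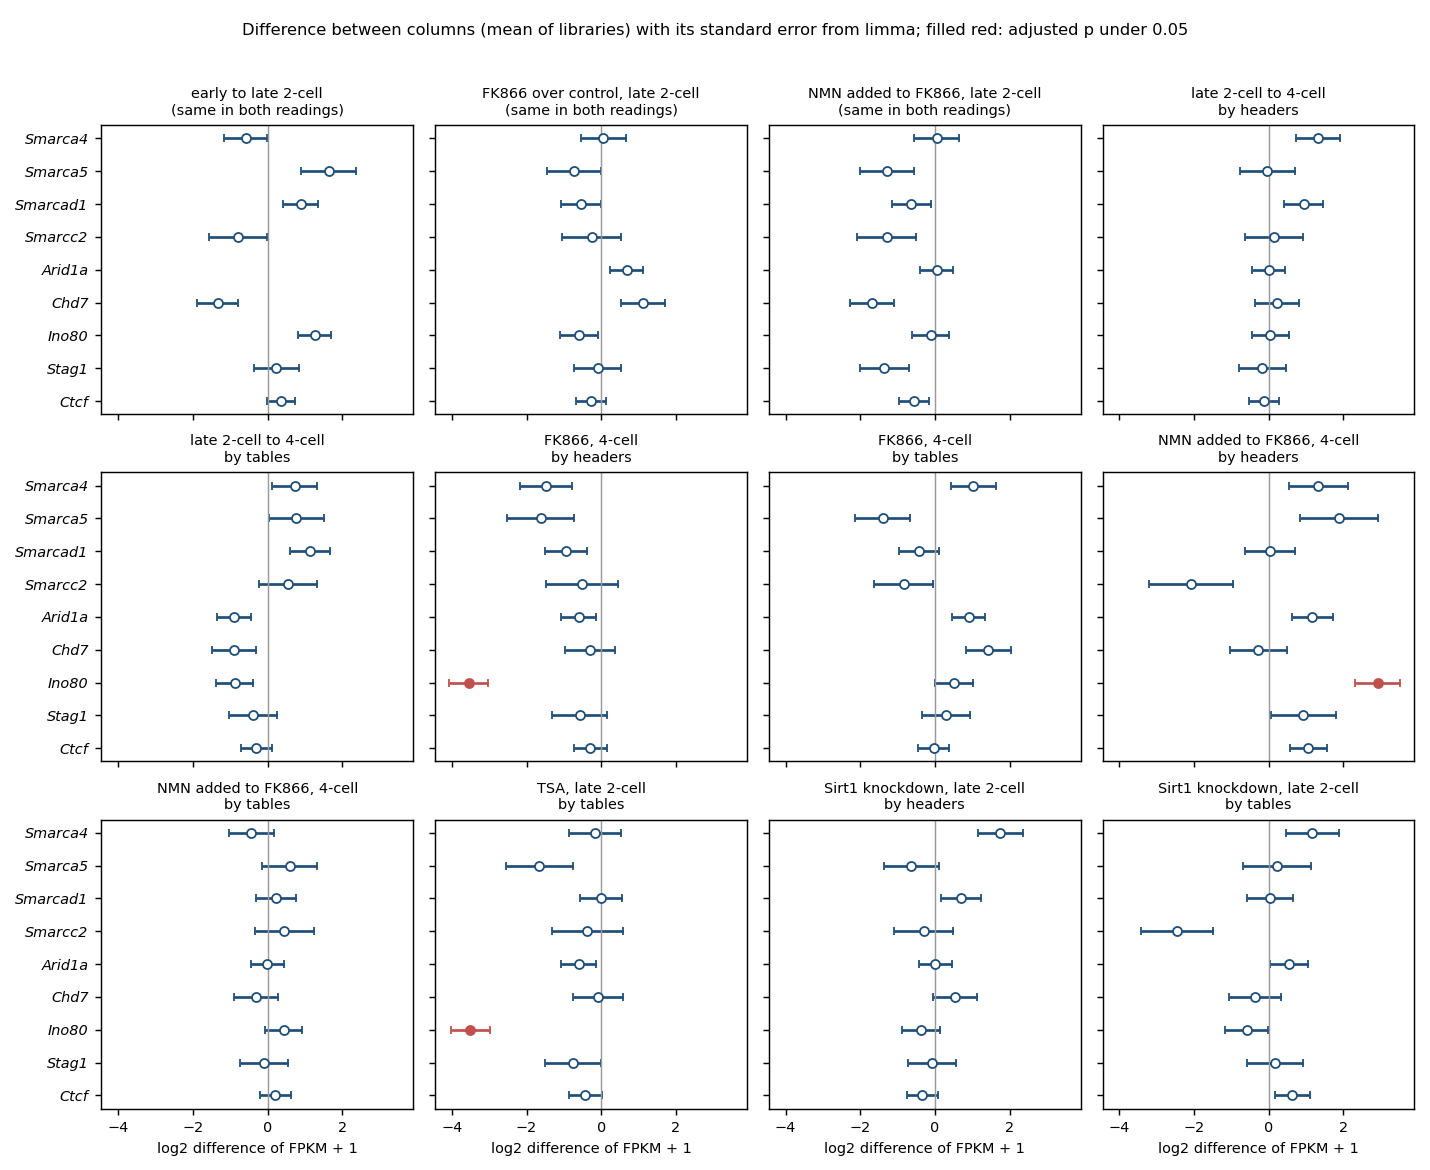
Log2 difference of FPKM + 1 between columns with its standard error from limma (x axis) for the 9 genes (y axis) in 12 comparisons; filled red points have an adjusted p below 0.05. Ino80 is the one gene filled, in the 3 comparisons that use the column headed 4-cell FK866, at -3.55, 2.92 and -3.51.

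At the late 2-cell stage, which the headers and the tables read alike, FK866 gave no difference past the threshold among the 9 genes, and 0.104% of all 8639 genes passed. Chd7 differed by 1.12 ± 0.59 and Arid1a by 0.68 ± 0.45, both with FK866 libraries above control without overlap. Smarca5 differed by -0.73 ± 0.73, Ino80 by -0.60 ± 0.50 and Smarcad1 by -0.55 ± 0.53, with FK866 libraries below control. Ctcf differed by -0.28, also with FK866 libraries below control, and Smarcc2, Stag1 and Smarca4, which overlapped control, by -0.25, -0.10 and 0.05. With 2 libraries in each group such a position is weak evidence, and its share over all genes at this stage was not counted. The smallest adjusted p was 0.487, for Chd7, and 0 genes were below 0.05 unadjusted, while limma voom called 0 of 8 with 1 below 0.05. The standard errors were 0.41 to 0.79, so that changes more than 1 standard error away from each estimate, in either direction, remain possible.

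When late 2-cell embryos had NMN beside FK866, 7 of the 9 genes had lower values than with FK866 alone, with a median of -0.63, near the median of all 8213 genes tested of -0.49. Chd7 differed by -1.68 ± 0.59 with adjusted p = 0.149, and Stag1, Smarca5 and Smarcc2 by -1.36 ± 0.65, -1.29 ± 0.73 and -1.29 ± 0.79. None of the 9 passed, against 2.76% of all genes, and 1 was below 0.05 unadjusted. limma voom called 1 of 8, Chd7, at -2.05 ± 0.51 and adjusted p = 0.023. Without FK866+NMN library B, Chd7 and Stag1 passed, at -2.27 ± 0.51 and -2.05 ± 0.52 with adjusted p of 0.0194 and 0.0289, and these rest on library A, in which Stag1 had 1 read and the fewest genes were detected. Without library A, none passed. Arid1a and Smarca4 differed by 0.05 ± 0.44 and 0.04 ± 0.60.

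From late 2-cell to 4-cell control, none of the 9 genes passed by the headers, where 11.1% of all 8496 genes did, or by the tables, where 18.7% of 8289 did. By the headers Smarca4 was nearest, at 1.32 ± 0.60 with adjusted p = 0.181, and 1 gene was below 0.05 unadjusted. By the tables Smarcad1 was nearest, at 1.13 ± 0.53 with adjusted p = 0.164, and 0 genes were below 0.05 unadjusted. limma voom called 0 of 8 by the headers, with 2 below 0.05, and 1 of 8 by the tables, Smarcad1 at 1.34 ± 0.43 with adjusted p = 0.0477. Arid1a, Chd7 and Ino80 differed by -0.89 ± 0.45, -0.89 ± 0.59 and -0.88 ± 0.50 by the tables and by 0.00, 0.22 and 0.04 by the headers. In the reading by the tables both 4-cell control libraries lay below both late 2-cell control libraries for all 3 of these genes. The same held for Ctcf and Stag1, and the libraries of Smarca4, Smarca5, Smarcad1 and Smarcc2 lay above without overlap. How many of all genes lay on one side in this way was not counted, and their median difference was -0.44. The comparison of late 2-cell TSA with control by the headers takes the same 2 columns, so the same values and the same 18.7% of all genes apply to it.

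The values for FK866 at the 4-cell stage depended on the reading. By the headers, Ino80 fell from 19.2 and 19.9 to 0.753 FPKM, a log2 difference of -3.55 ± 0.52 with adjusted p = 0.000928, and it was the 1 gene of the 9 to pass, against 31.5% of all 8968 genes. All 9 genes had lower values, with a median of -0.61, while the median of all genes was 0.46. Smarca5 and Smarca4 differed by -1.62 ± 0.90 and -1.48 ± 0.70 with adjusted p of 0.191 and 0.130, and the others by -0.94 to -0.30. The treated arm is 1 library, whose spread was taken to be that of the others, and Ino80 passed under every alternative tried. By the tables, none of the 9 passed, against 0.197% of all 7112 genes. Chd7 differed by 1.43 ± 0.60, Smarca4 by 1.03 ± 0.60 and Arid1a by 0.90 ± 0.45, each higher in the FK866 pair of libraries than in the control pair, and Smarca5 by -1.40 ± 0.73. The smallest adjusted p was 0.511, for Chd7, with 1 gene below 0.05 unadjusted, and limma voom called 0 of 8 with 3 below 0.05. Ino80 differed by 0.50 ± 0.51 and Ctcf by -0.04 ± 0.42 in this reading. Both FK866 libraries lay above both controls for Ino80, the reverse of the late 2-cell stage. They lay below for Smarca5, Smarcad1 and Smarcc2. The share of all genes so placed at the 4-cell stage alone was not counted.

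Chd7 and Arid1a thus had higher FPKM in both FK866 libraries than in both controls at the late 2-cell stage and, by the tables, at the 4-cell stage, with no overlap at either stage. Smarca5 and Smarcad1 had lower FPKM in both FK866 libraries than in both controls at the same stages. These were 4 of the 9 genes, against 5.33% of all 9703 genes that lay on one side of control, the same at both stages, without overlap. The 9 genes were chosen with earlier results of these data known, and genes matched for level or library spread were not compared. Whether the 9 as a set stand out from all genes was therefore not tested. The FK866 difference at the 4-cell stage minus that at the late 2-cell stage was 0.31 ± 0.83 for Chd7 and 0.21 ± 0.63 for Arid1a by the tables. In that reading 0 of 9 genes passed for this difference, 0 were below 0.05 unadjusted, limma voom called 0 of 8, and 0% of all 9703 genes passed, with 743 below 0.05 unadjusted. By the headers Ino80 passed, at -2.95 ± 0.67 with adjusted p = 0.020, against 12.2% of all 10311 genes, whereas by the tables it was at 1.10 ± 0.71 with adjusted p = 0.717. The call by the headers was lost when libraries were centred on their median, with adjusted p = 0.0508, and in limma voom, with adjusted p = 0.125. The headers put Chd7 at -1.43 ± 0.85 and Arid1a at -1.29 ± 0.63.

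NMN added to FK866 at the 4-cell stage compares, by the headers, the 2 single libraries, so that neither arm has a replicate and the spread comes wholly from other columns. Ino80 was at 12.3 FPKM with NMN and 0.753 FPKM without, a difference of 2.92 ± 0.60 with adjusted p = 0.0105, the 1 gene of the 9 to pass, against 11.9% of all 8546 genes. Smarca5, Smarca4, Arid1a and Ctcf differed by 1.88 ± 1.04, 1.33 ± 0.80, 1.16 ± 0.55 and 1.06 ± 0.50, with adjusted p of 0.211 to 0.331. Smarcc2, at 0 reads with NMN and 3.23 FPKM without, differed by -2.08 ± 1.12 on this scale, and its FPKM was at least 41.3-fold lower, taking 3 reads as the floor. limma voom called Smarcc2 and not Ino80, at adjusted p of 0.0301 and 0.0988, and with libraries centred on their median Ino80 had an adjusted p of 0.128. By the tables, with 2 libraries in each arm, none of the 9 passed, against 0.0269% of all 7440 genes, and the differences ran from -0.43 to 0.59. There 0 genes were below 0.05 unadjusted, and limma voom called 0 of 8 with 1 below 0.05.

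TSA by the tables compares the single library headed 4-cell FK866 with the late 2-cell control libraries. Ino80 was at 0.753 FPKM against 19.4 and 18.5 FPKM, a difference of -3.51 ± 0.52 with adjusted p = 0.00151, and it was the 1 gene of the 9 to pass, against 13.1% of all 9013 genes. Fitted with only the 3 libraries compared, the difference was the same and the adjusted p was 0.0868, and with limma voom it was 0.060. Smarca5 differed by -1.66 ± 0.90, below both control libraries. Stag1 differed by -0.76 ± 0.74, Arid1a by -0.61 ± 0.48 and Ctcf by -0.43 ± 0.44, each also below both. With 1 library in this arm such a position is weak evidence, and its share over all genes was not counted. Smarcad1, Chd7 and Smarca4 differed by 0.00, -0.09 and -0.16. The median of the 9 was -0.43 and that of all genes 0.17.

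For the Sirt1 knockdown none of the 9 genes passed by the headers, where 14.3% of all 8403 genes did, or by the tables, where 0.956% of 8262 did. By the headers Smarca4 was at 38.0 and 46.0 against 8.38 and 16.2 FPKM, a difference of 1.75 ± 0.60 with adjusted p = 0.0745, which became 0.0474 with a pseudocount of 5. It was the 1 gene below 0.05 unadjusted, and limma voom called 0 of 8 with 2 below 0.05. By the tables Smarca4 was at 27.7 FPKM, above both controls, a difference of 1.17 ± 0.72 with adjusted p = 0.607. Smarcc2, at 0 reads, differed by -2.45 ± 0.96 with adjusted p = 0.327 and was the 1 gene below 0.05 unadjusted, and its FPKM was at least 61.5-fold lower than the control mean, taking 3 reads as the floor. limma voom called 0 of 8 with 1 below 0.05. Ctcf, Arid1a and Stag1, at 74.7, 53.5 and 4.06 FPKM, lay above both control libraries but differed by 0.63 ± 0.47, 0.54 ± 0.52 and 0.17 ± 0.76. Ino80, at 12.3 FPKM, lay below both and differed by -0.59 ± 0.57. The share of all genes outside the control libraries was not counted.

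Counted by the mean of each column, without error, the number of the 9 genes that differed more than 2-fold ran from 0 to 6. These were 3 of 9 from early to late 2-cell (Smarca5 and Ino80 higher, Chd7 lower) against 63.9% of all genes, 1 of 9 for FK866 at late 2-cell (Chd7 higher) against 38.1%, and 4 of 9 for NMN added there (Smarca5, Smarcc2, Chd7 and Stag1 lower) against 52.1%. By the headers, they were 1 of 9 from late 2-cell to 4-cell (Smarca4 higher) against 58.0%, 3 of 9 for FK866 at 4-cell (Smarca4, Smarca5 and Ino80 lower) against 74.7%, and 6 of 9 for NMN added at 4-cell against 59.7%. Also by the headers, they were 1 of 9 for TSA (Smarcad1 higher) against 64.5% and 1 of 9 for the knockdown (Smarca4 higher) against 60.9%. By the tables, they were 1 of 9 from late 2-cell to 4-cell (Smarcad1 higher) against 64.5%, 2 of 9 for FK866 at 4-cell (Smarca4 and Chd7 higher) against 34.6%, and 0 of 9 for NMN added at 4-cell against 26.3%. For TSA they were 2 of 9 (Smarca5 and Ino80 lower) against 59.8%, and for the knockdown 2 of 9 (Smarca4 higher, Smarcc2 lower) against 44.5%. The share was below that of all genes in all of these comparisons but NMN added at 4-cell by the headers.

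Other genes of the same complexes, listed by name, numbered 106, of which 58 were among the rows. From early to late 2-cell 9 of 54 tested passed, or 16.7% against 21.3% of all genes, 4 higher and 5 lower, with a median of -0.49 against -0.06 for all genes. Among BAF subunits 1 of 9 rose, Bcl7c, by 3.08 ± 0.40 with adjusted p = 0.000489. It was at 20.2 and 15.8 FPKM in early 2-cell, 168 and 149 in late 2-cell control and 5.60 and 7.23 in the column headed late 2-cell TSA. Among INO80, SRCAP and TIP60 subunits the paired ATPases Ruvbl1 and Ruvbl2 moved apart, Ruvbl1 rising by 4.39 ± 0.65 (adjusted p = 0.00113) and Ruvbl2 falling by 2.38 (standard error 0.65, adjusted p = 0.0251). Ruvbl1 went from 4.58 and 8.16 to 136 and 163 FPKM and Ruvbl2 from 41.6 and 33.1 to 10.1 and 3.81 FPKM. Actr5, an actin-related subunit of INO80, rose by 2.69 ± 0.80 (adjusted p = 0.0356), and these were 3 of 16 tested. Actr5 went from 0.0424 and 0 to 6.63 and 4.7 FPKM and met the 1 FPKM minimum only in late 2-cell control.

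Among CHD and NuRD genes 3 of 10 fell in that step, the remodelers Chd1l and Chd2 and the NuRD subunit Gatad2b, by 1.55, 1.19 and 1.75 with adjusted p of 0.0117, 0.0476 and 0.0392. Chd1l went from 2.43 and 1.5 FPKM to 0 in both control libraries, and Chd2 from 1.97 and 1.63 to 0 and 0.504 FPKM. Chd1l and Chd2 were thus low throughout this step and met the 1 FPKM minimum only in early 2-cell. Of ISWI partners 1 of 6 rose, Pole3, a histone-fold protein shared with DNA polymerase epsilon, at 1.62 ± 0.50. Of other SNF2 ATPases 1 of 7 fell, the annealing helicase Smarcal1, at -2.19 ± 0.60, and of 6 cohesin genes none passed, with a median of 0.79. From late 2-cell to 4-cell by the tables, 5 of 49, or 10.2% against 18.7% of all genes, passed: Bcl7c fell by 4.43 and its relative Bcl7a rose by 2.14, Uchl5, a deubiquitinase bound to INO80, rose by 3.33, Ep400, the ATPase of the TIP60 complex, fell by 1.74, and Mau2, part of the cohesin loader, fell by 3.13. By the headers 2 of 49, or 4.08% against 11.1% of all genes, passed, Bcl7c and Bcl7a, in the same directions. Bcl7a was at 0 and 0.481 FPKM in late 2-cell control and met the 1 FPKM minimum only in the 4-cell column of either reading.

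**Figure D4:**
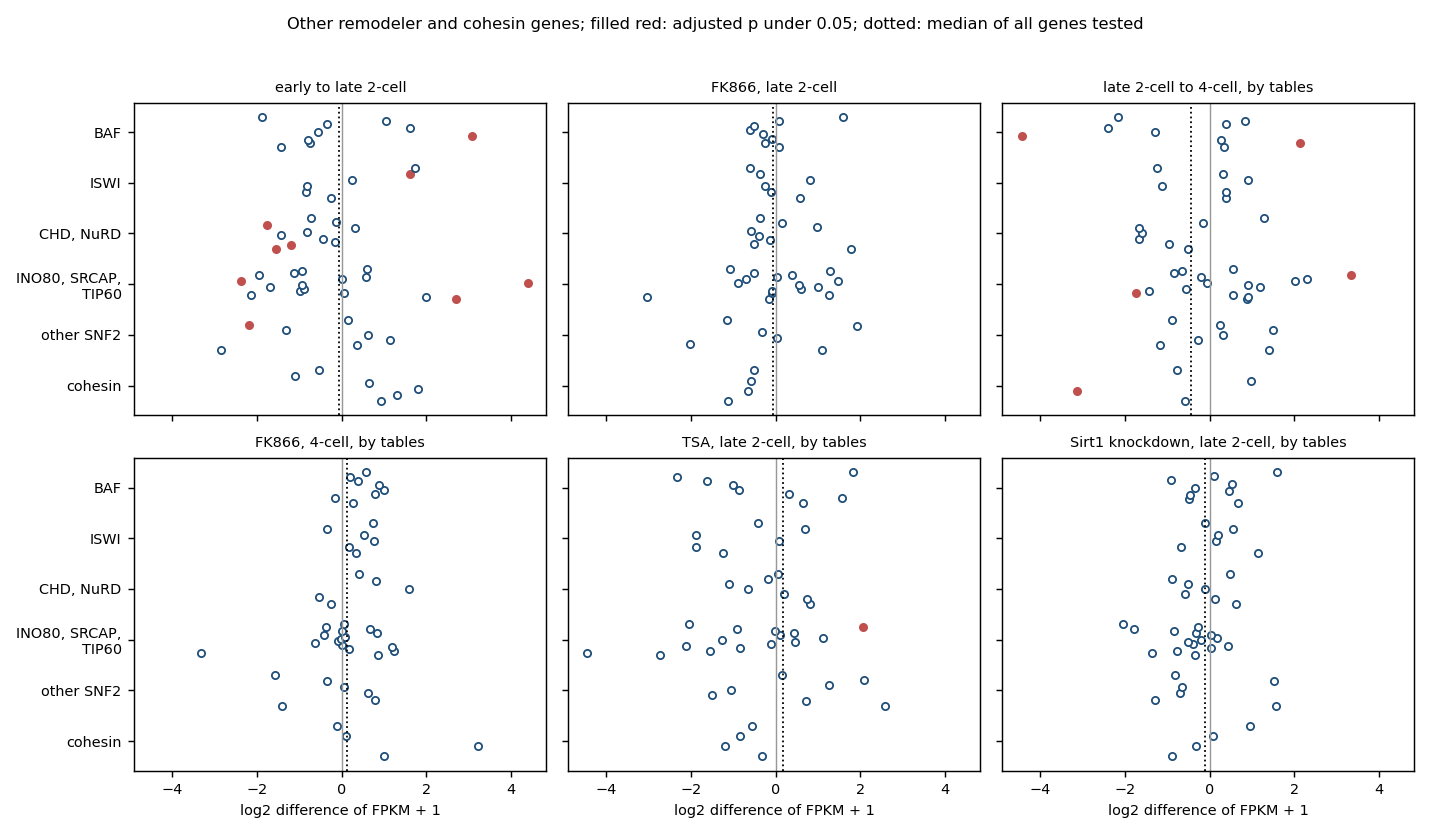
Log2 difference of FPKM + 1 (x axis) of other remodeler and cohesin genes by list (y axis) in 6 comparisons, the disputed ones by the tables, with filled red points for an adjusted p below 0.05 and a dotted line at the median of all genes tested. From early to late 2-cell 9 genes are filled, and none in the panels of FK866, where 0.104% (late 2-cell) and 0.197% (4-cell) of all genes passed.

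The treatments that the 2 readings share gave no call among these genes and few among all genes. With FK866 at late 2-cell 0 of 48 passed in limma, against 0.104% of all genes, with 6 below 0.05 unadjusted and a median of -0.15. With NMN added 0 of 48 passed, against 2.76% of all genes, with 9 below 0.05 and a median of -0.51 against -0.49 for all genes. In the reading by the tables, 0 of 45 passed for FK866 at 4-cell (5 below 0.05), 0 of 45 for NMN added there (1 below 0.05), 0 of 47 for the Sirt1 knockdown (0 below 0.05), and 1 of 47 for TSA, Yeats4, a subunit that reads acetylated histones, at 2.07 ± 0.60 with adjusted p = 0.0495, where 13.1% of all genes passed. By the headers 11 of 49, or 22.4% against 31.5% of all genes, passed for FK866 at 4-cell, 4 higher and 7 lower, 0 of 44 for NMN added (4 below 0.05), and 5 of 48, or 10.4% against 14.3%, for the knockdown, 2 higher and 3 lower. With FK866 by the headers, Bcl7c rose by 3.78, Cecr2, an ISWI partner, fell by 3.28 and Actr5 fell by 4.70, from 23.3 and 26.7 to 0 FPKM. Ino80 and its partner Actr5 were thus both at or near 0 in the column headed 4-cell FK866, and Actr5 was so too in the early 2-cell libraries, at 0.0424 and 0 FPKM. Others of the INO80, SRCAP and TIP60 list differed in the single library headed 4-cell FK866, in which 8641 genes had a read. Actr6 was at 0 there, while Ruvbl1, Ruvbl2, Yeats4, Ep400 and Uchl5 were at 61.7, 14.9, 182, 8.99 and 1.75 FPKM. Actr5 was also at 0 in both late 2-cell FK866+NMN libraries, where Ino80 was at 9.31 and 13.1 FPKM. Of all genes by the tables, 0.197% passed for FK866 at 4-cell, 0.0269% for NMN added there and 0.956% for the knockdown. The share by the headers was 11.9% for NMN added at 4-cell. The lists were not tested with limma voom.

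Over the 9 columns the levels of the 9 genes were only loosely alike, with r from -0.76 to 0.81 and a median of 0.24 over 36 pairs. The columns share controls, depth and the 2 readings, and the r are descriptions over 9 points. Smarca5 and Smarcad1 were most alike, at 0.81, followed by Stag1 and Ctcf at 0.79 and Smarca5 and Stag1 at 0.66. Arid1a and Smarcad1 were least alike, at -0.76, since Arid1a was lowest where Smarcad1 was highest, in the column headed late 2-cell TSA. Among 8591 other genes at 1 FPKM or more in 3 or more columns, those most like Ino80 were Utp4 and Rnf20, at r of 0.964 and 0.961. For Ctcf they were Mexis and Fam53a, at 0.921 and 0.903, and for Chd7 Mthfd1l and Gm30262, at 0.906 and 0.902. Smarcad1 was followed most closely by Gm8319 and Gm10075, at 0.995 and 0.992, and Smarca5 by Tmed1 and Creb3, at 0.970 and 0.958. Smarca4 was nearest to Snx1 and Snrnp200, at 0.944 and 0.943, and Arid1a to Atxn2l and Gm42980, at 0.952 and 0.926. For Stag1 they were Ppdpf and Sycp1, at 0.962 and 0.937, and for Smarcc2 Gm18584 and Ndufa8, at 0.936 and 0.935. With 9 points and 8591 genes searched, values of this size are the top of a long ranking.

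**Figure D5:**
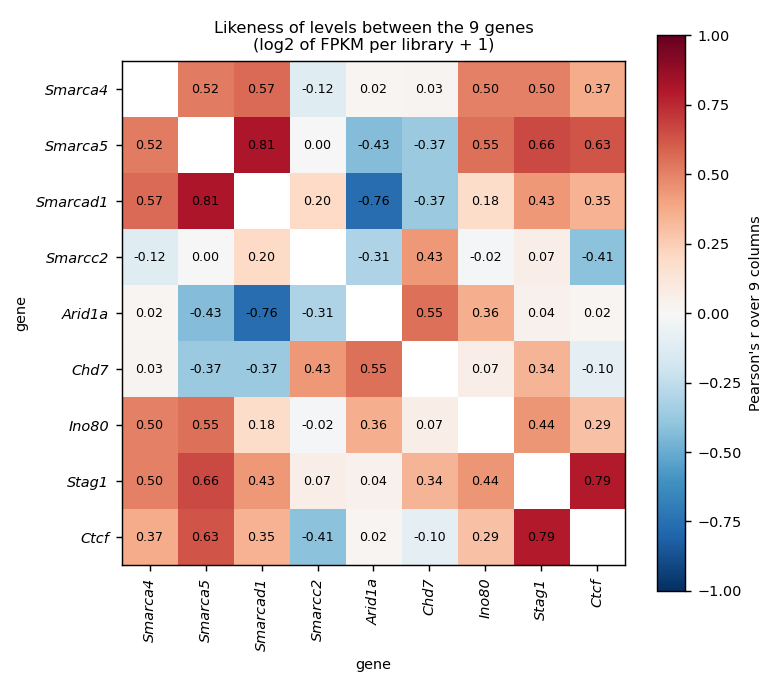
Pearson's r of log2(FPKM per library + 1) over the 9 columns for each pair of the 9 genes (both axes), from blue at -1 to red at 1. The pairs Smarca5 with Smarcad1 (0.81) and Stag1 with Ctcf (0.79) are highest and Arid1a with Smarcad1 (-0.76) lowest.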

How the data were processed

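The deposited values are FPKM that the authors made from trimmed reads (Trim Galore) mapped by HISAT2 to mm10 and summed per gene, 1 column per group, with 15747 complete rows and 1 row cut short. Genes whose symbol occurred once (15737) were used. From each FPKM and the GENCODE M21 exon length, whole reads of each library were recovered, for 97.0% to 97.8% of values above 0, and a value with several splits was left out of the fit. Columns adding 2 libraries were divided by 2. The 4-cell values of the paper's tables (84 genes per group) equalled the columns described by them in all 84, and those of late 2-cell the columns so headed in 117 or 118 of 118.

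limma 3.58.1 in R 4.3.3 was fitted to log2(FPKM + 1) of all 16 libraries (lmFit, eBayes with trend), two-sided, over genes with 1 FPKM or more per library in either column. The 2 columns with 1 library were taken to vary like the others. Fold changes between columns used FPKM per library + 1. The fit was tested on simulated data with a fixed spread between libraries, not estimated from these data. There more unchanged genes were called than the threshold allows. Named genes were the 9, Sirt1, genes of each list that passed (at most 3 of smallest p per list and comparison, or the 2 of largest difference where none passed) and the 2 genes most alike to each of the 9. The genes and lists were chosen with earlier results of these data known. The fold columns of the paper's tables were used only for their direction, to place 2 columns, and are not reported. H3K27ac samples were not analysed here.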

Additional observations from a re-analysis of the deposited data

Results flagged for a closer look

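For 1 of the 9 genes, and only by the headers, the FK866 difference at the 4-cell stage differed from that at the late 2-cell stage. By the headers, Ino80 differed by -2.95 ± 0.67 more at the 4-cell stage (limma interaction, adjusted p = 0.020), where it rests on 1 library with 24 reads of Ino80 and has no replicate. The call was lost with libraries centred on their median (adjusted p = 0.0508) and in limma voom (adjusted p = 0.125). By the tables, which take other columns for the 4-cell stage, the same difference was 1.10 ± 0.71 with adjusted p = 0.717.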

How the results depend on the processing

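Of 1375 values of single genes recomputed with a pseudocount of 0.1 or 5, with a 5 FPKM minimum or none, with centring on the median, with a fit of only the columns compared, with limma voom on recovered reads and with each library left out, 1292 stayed within 1 standard error or on the same side of the threshold, 68 moved by more (18 of them with a change of sign, none past the threshold), 9 gained and 6 lost a call. Ino80 with FK866 at 4-cell by the headers passed in all. With a pseudocount of 5 the number of the 9 genes called rose from 0 to 1 from early to late 2-cell (Ino80) and for the Sirt1 knockdown by the headers (Smarca4). In limma voom it rose from 0 to 1 for NMN added at late 2-cell (Chd7), for late 2-cell to 4-cell by the tables and for TSA by the headers (Smarcad1 in both), and fell from 1 to 0 for TSA by the tables and for the stage difference by the headers. Centring took it from 1 to 0 for NMN added at 4-cell and for the stage difference, both by the headers, and the fit of only the columns compared from 1 to 0 for TSA by the tables, where fewer libraries give the spread. The cause of the other changes was not tested. With single libraries left out the number was 0 to 1 from early to late 2-cell and 0 to 2 for NMN added at late 2-cell, and unchanged in the other comparisons where a library could be left out. The number past 2-fold ranged from 1 to 4 for NMN added at late 2-cell, 0 to 4 for late 2-cell to 4-cell by the tables and 3 to 6 for FK866 at 4-cell by the headers. No fit was possible for NMN added at 4-cell by the headers with only its 2 libraries, nor without the lone library of a column. No paired analysis was possible because the columns carry no replicate number. The 2 libraries of 3 embryos per group limit what can be seen, with standard errors of 0.37 to 1.22 for the 9 genes.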
